A study of Homo sapiens with 7 samples.

Results

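U6 is the small nuclear RNA at the catalytic centre of the major spliceosome, and the human genome holds a few functional copies of its gene and a large number of copies annotated as pseudogenes. The members described here are peaks of N6-methyladenosine (m6A) of which at least 50% lay in the hg38 span of a RefSeq U6 gene, a gene of at most 400 nt with a symbol beginning RNU6 followed by a hyphen. RefSeq lists 1281 such copies, 5 annotated as snRNA genes (called functional here) and 1276 as pseudogenes. The rule found 192 peaks in 190 copies, out of 59659 peaks in all.

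The 4 peak lists came from HEK-293T, an established human line of embryonic kidney origin, grown in DMEM with serum. In MeRIP, which has 2 lists, RNA fragments were captured with an anti-m6A antibody. In m6A-ORL, which also has 2 lists, fragments were incubated in turn with NO/O2, TDO and a biotin-carrying probe called BA, and the biotinylated RNA was pulled down with streptavidin and eluted with DTT. Per the labels, m6A-ORL replicate 1 was made from total RNA, and m6A-ORL replicate 2 and both MeRIP replicates from polyA RNA. Yet the protocol text, the same for each sample, has all RNA selected with oligo(dT). RNA type and replicate therefore cannot be told apart within m6A-ORL, and RNA type and method are partly confounded. Nothing says that replicates came from separate cultures. Peak lists hold no expression levels, so the cell line label was not checked against marker genes.

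U6 is transcribed by RNA polymerase III and carries no poly(A) tail. The methyltransferase METTL16 adds m6A to it at position 43, counted from 1 at the 5′ end, in the stretch that pairs with the 5′ splice site. Functional copies encode near-identical RNA, and many pseudogene copies differ from it by few bases, so a short read can fit several copies. How the authors treated such reads is not stated in these sources. A peak at a copy therefore says that reads were placed there, not that the copy was transcribed.

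The U6 peaks were all in 1 list. The total RNA m6A-ORL list had 192 among its 11022 peaks (1.74%, exact 95% binomial interval 1.51 to 2.004). The polyA m6A-ORL list had 0 of 7661, which allows a share of up to 0.0392% by the limit of 3 peaks. MeRIP replicate 1 had 0 of 20760 and MeRIP replicate 2 had 0 of 20216, which allow up to 0.0145% and 0.0148% by the same limit. The exact 95% intervals of these 3 lists reach somewhat higher, to 0.0481%, 0.0178% and 0.0182%. These intervals and limits cover counting error only, and read depth is unknown. The mean was 96.0 ± 136 U6 peaks for m6A-ORL and 0 ± 0 for MeRIP (SD, n = 2 each). With a single list above 0, each of the 3 ways to divide the lists into pairs gives the same difference, so the exact two-sided permutation p was 1 (the smallest these lists could give is 0.33). The difference of 96.0 peaks became 0 without m6A-ORL replicate 1 and 192 without m6A-ORL replicate 2.

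Short genes other than U6 were set beside these counts. Of the 8187 RefSeq genes of at most 400 nt outside U6, 8.26% had a peak in the total RNA list, 0.244% in the polyA m6A-ORL list, and 0.22% and 0.147% in the MeRIP lists. In the 9 other families of structured RNA described below, 18 of 57 functional genes had a peak in the total RNA list, 3 in the polyA m6A-ORL list and 0 in each MeRIP list. The 57 genes are a mix, since their shares in the total RNA list differed widely between families, as split below. Functional short genes outside all these families had a peak in 1.99% of 4011 cases in the total RNA list, 0.175% in the polyA m6A-ORL list, and 0.424% and 0.249% in the MeRIP lists. Peaks on short genes, U6 included, numbered 907 in the total RNA list, and U6 made up 21.2% of them.

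Of the 5 functional copies, 2 had a peak in the total RNA list and 0 in each of the other lists. RNU6-9 (hg38 chromosome 19, 893484 to 893590, plus-strand peak, ENSG00000207507.1) was covered from end to end by 1 peak. Its score was 1e-105, rank 155 of the list by the authors' score, whose values have the form of p-values or q-values. RNU6-2 (chromosome 19, 1021522 to 1021628, plus-strand peak, ENSG00000207357.1) was also covered whole, with a score of 0.00042 and rank 8988. The scores of the pair thus lay far apart in the list.

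RNU6-1 (chromosome 15, 67839939 to 67840045), RNU6-7 (chromosome 14, 32202045 to 32202151) and RNU6-8 (chromosome 14, 32203163 to 32203269) had no overlapping peak in any list. The nearest peak to RNU6-1 lay 5712 and 5742 nt away in the MeRIP lists and 246512 and 246392 nt away in the m6A-ORL lists. For RNU6-7, which lies close to RNU6-8, the nearest peak was 47146 nt away, in the total RNA list. The 2 functional copies with a peak had neighbours in the polyA lists, but on the other strand: a MeRIP peak lay 343 and 373 nt from RNU6-2 and 1045 and 716 nt from RNU6-9. Those neighbours carry the IDs of other genes.

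Among pseudogene copies, 188 of 1276 had a peak in the total RNA list (14.7%, interval 12.8 to 16.8). Of all RefSeq pseudogenes of at most 400 nt 14.2% had one, and of those outside U6 14%, so the U6 share was near the pooled background. That background is a mix: 552 of 1903 pseudogenes of the 9 other families had a peak (29.0%), and 26 of the 2216 remaining short pseudogenes (1.17%). U6 pseudogenes lay between these groups. Copies share ancestry and reads, so the intervals describe counting only and no test was made over copies.

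Set beside single families in the same list, the share of U6 copies with a peak (functional and pseudogene, 14.8%, interval 12.9 to 16.9) was the lowest of the 10 families counted. Copies of U2, which pairs with the branch site and with U6 itself, had a peak in 60.6% of 71 cases (48.3 to 72.0). For U1, which first recognises the 5′ splice site, the share was 43.1% of 144 (34.8 to 51.6). It was 36.7% of 526 copies of 5S ribosomal RNA, 26.1% of 88 copies of U4, the RNA that pairs with U6 until the spliceosome is activated, and 20.6% of 34 copies of U5. The polymerase III transcripts 7SK and 7SL, a regulator of transcription elongation and the RNA of the signal recognition particle, had 25.6% of 293 and 20.5% of 684. The intervals of U4, U1, U2, 5S, 7SK and 7SL lay above that of U6, and those of U5 and of the Y RNAs (17.7% of 79) overlapped it. The shares pool functional genes with pseudogenes, and most copies in each family are pseudogenes. Functional genes with a peak numbered 0 of 17 for 5S, 0 of 5 for U5 and 0 of 1 for 7SK. All peaks counted for those families were thus on pseudogenes. There were 10 of 21 for U1, 2 of 3 for U2, 2 of 2 for U4 and 1 of 3 for 7SL. The Y RNAs had 2 of 4 and U6 2 of 5.

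U6atac, the counterpart of U6 in the minor spliceosome, is not counted among the U6 copies. Of 41 U6atac copies 13 had a peak in the total RNA list and 1 in the polyA m6A-ORL list. In both lists its functional gene, RNU6ATAC, was a copy with a peak, while no functional U6 copy had a peak in both. The RNU6ATAC peak scored 0 in the total RNA list, at rank 0.322% where 0 is best. In the polyA m6A-ORL list it scored 0.00065, at rank 97.0%, near the end of that list. The only other functional genes of these families with a peak there were 2 of 3 7SL genes, at a median rank of 2.42%.

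**Figure D1:**
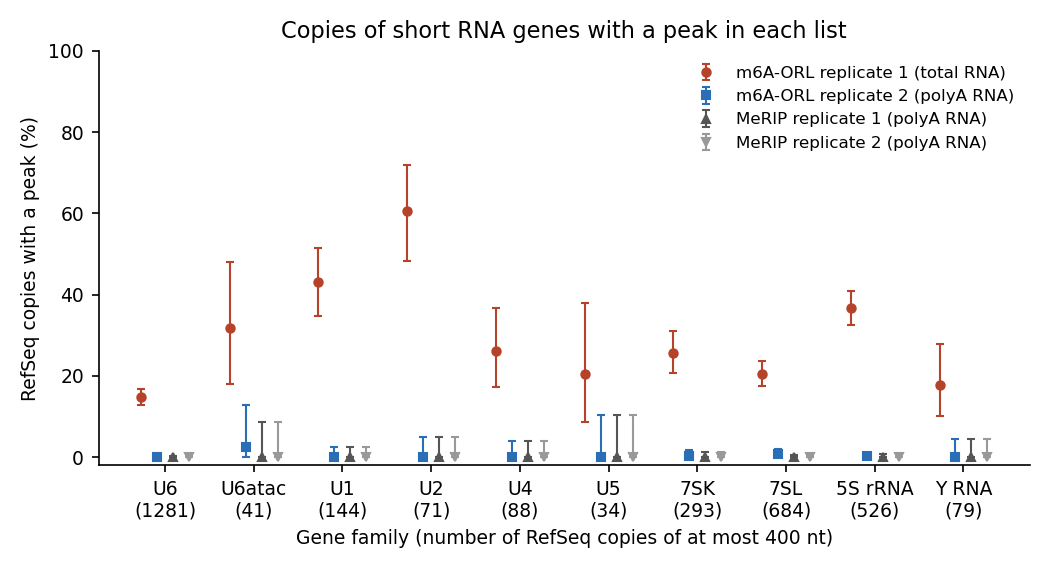
Share of RefSeq copies (%, vertical axis) with a peak for 10 families of short RNA genes (horizontal axis, copies in parentheses) in each of the 4 lists, with exact 95% binomial intervals as bars. U6 is at 14.8% in the total RNA m6A-ORL list and at 0% in the 3 polyA lists, and the other families are also at or near 0% in the polyA lists.

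The best-scored U6 peaks were on pseudogenes, as were nearly all U6 peaks of the total RNA list. In that list 190 U6 peaks were on pseudogenes and 2 on functional copies. The class of the best-scored peaks therefore does not show that pseudogenes scored better than functional copies. A score of 0, read as below what the file could store, was given to 8 U6 peaks out of 70 such peaks in the list, and all 8 were on pseudogenes. By position the first 6 were RNU6-48P (chromosome 1, 27325219 to 27325324), RNU6-34P (chromosome 4, 96152299 to 96152403), RNU6-47P (chromosome 5, 109014835 to 109014940), RNU6-263P (chromosome 6, 18306975 to 18307078), RNU6-761P (chromosome 6, 42018409 to 42018514) and RNU6-393P (chromosome 7, 98794719 to 98794824). RNU6-14P on chromosome 9 and RNU6-46P on chromosome 11 shared the score of 0 with them. Each of the 8 peaks covered its copy whole and was 106 or 107 nt wide.

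These copies lay in different surroundings. RNU6-48P lay in the span of TMEM222, RNU6-47P in that of FER, a tyrosine kinase gene, RNU6-761P in that of CCND3, which encodes cyclin D3, and RNU6-14P in that of CCDC171. RNU6-34P, RNU6-263P and RNU6-393P lay in the span of no longer gene. The RefSeq table used gives no strand or exons, so whether a copy is in an intron of such a gene, and on which strand, was not determined.

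U6 scores covered the whole range of the list. Scores ran from 0 to 0.0034, with a median of 3.05e-09, against 3.3e-05 for the list. Of the 192 peaks, 118 scored 1e-05 or lower and 37 below 1e-50. The best 10% of the list held 76 U6 peaks (39.6%) and the worst 10% held 20 (10.4%). U6 peaks had a median rank of 17.8% of the list, where 0 is best. The 715 peaks on other short genes had a median rank of 16.5%, with 42.9% in the best 10%, and the 10115 remaining peaks had a median of 52.0%, with 7.07% in it. The U6 scores thus lay near the pooled scores of other short genes in this library. That pool is a mix, with median ranks from 2.16% for U2 copies to 45.4% for U5 copies. Some scores recurred, with 14 U6 peaks at 0.00028, 12 at 0.001 and 11 at 7.1e-05.

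**Figure D2:**
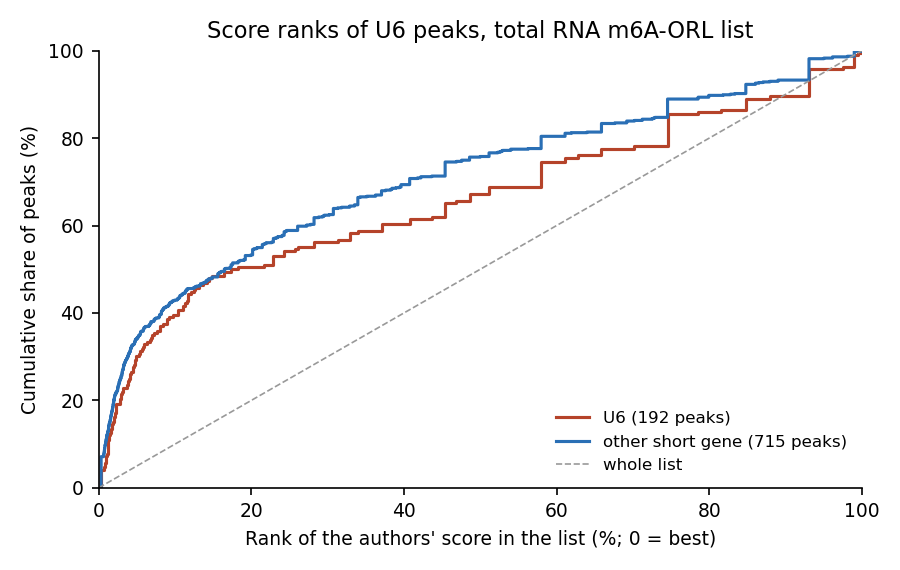
Cumulative share of peaks (%, vertical axis) against the rank of the authors' score in the total RNA m6A-ORL list (%, horizontal axis, 0 is best) for 192 U6 peaks and 715 peaks on other short genes, with the diagonal for the whole list. Both curves rise steeply at the left, with 39.6% and 42.9% of peaks in the best 10%, and the U6 curve runs at or below the other over most of the range.

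Most peaks matched the extent of the RefSeq copy. Each of the 192 carried a different Ensembl ID, and whether gene annotation set the peak ends and widths was not tested. All 192 had a single block, and 110 were exactly 107 nt wide, the length of the functional gene; the median width was 107 nt, against 150 nt for the list. Both ends lay within 3 nt of the ends of the RefSeq copy for 161 peaks (83.9%), and 177 covered the copy whole. Counted from the end of the copy that is 5′ on the strand of the peak, position 43 lay inside every one of the 192. The strand of the copies is not in the tables used, and at RNU6-105P, with peaks on both strands, the count from one of them is from the wrong end. Without sequence, this position cannot be matched to that of the U6 RNA in a pseudogene. Peaks that span the whole copy do not place the signal at that or any other base.

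Of the 31 peaks with an end more than 3 nt from that of the copy, most belonged to one of a pair of sets. A set of 11 peaks, 78 to 85 nt wide, covered 74.8% to 75.5% of their copies. Of these, 7 began at the 5′ end and stopped more than 20 nt short of the 3′ end, as at RNU6-544P and RNU6-339P. The other 4 began more than 20 nt inside the 5′ end, as at RNU6-1019P and RNU6-971P. All 11 had scores of 0.00028 or more. A further 10 peaks ran past the 3′ end of copies 68 to 96 nt long by 11 to 38 nt, the longest extension being at RNU6-1140P (score 2e-89). The remaining 10 include the wide peak at RNU6-799P and the plus-strand peak at RNU6-105P, described below, and RNU6-743P, whose peak ran 10 nt past the 3′ end.

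**Figure D3:**
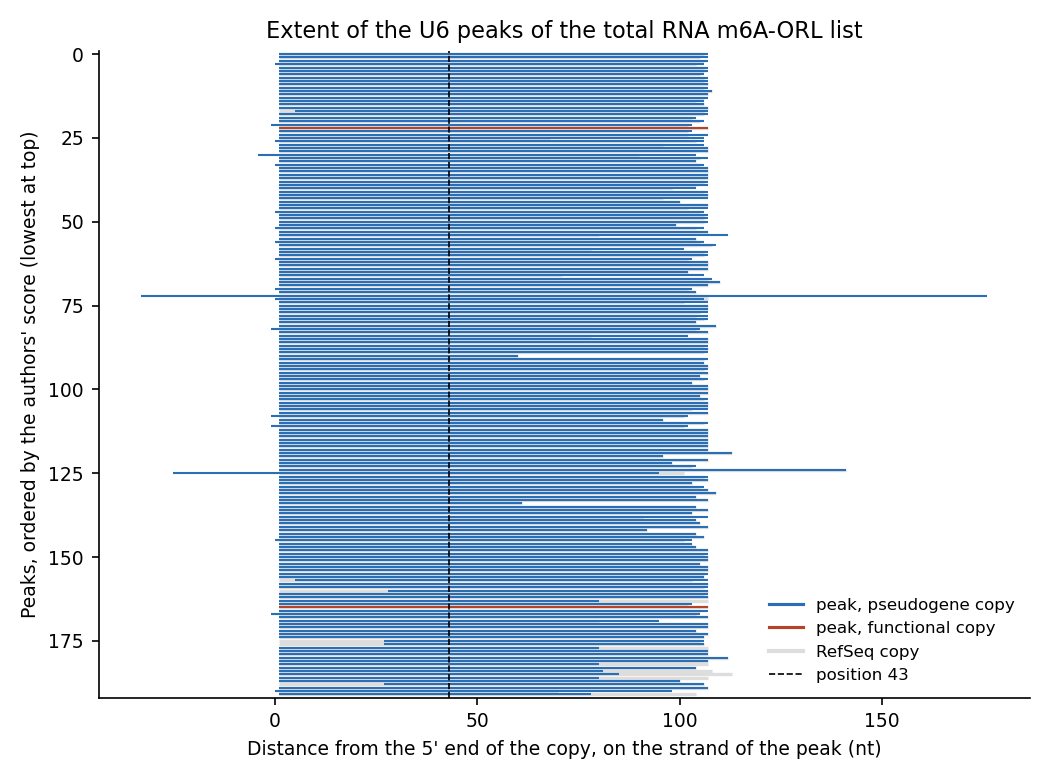
Extent of each of the 192 U6 peaks of the total RNA m6A-ORL list, in nt from the 5′ end of its copy on the strand of the peak (horizontal axis), ordered by score with the lowest at the top (vertical axis). Grey shows the RefSeq copy, blue a peak on a pseudogene, red a peak on a functional copy and the dashed line position 43 counted in that way, which all 192 peaks cover. The 11 peaks that cover only 74.8% to 75.5% of the copy are in the lower part.

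Of the 190 copies with a peak, 188 had 1 and 2 had 2. At RNU6-799P (chromosome 17) a 107-nt peak with its own ID and a 210-nt peak under ENSG00000286792.1 had the same strand and the same score, 5e-15. At RNU6-105P (chromosome 2) a minus-strand peak of 104 nt scored 1.2e-06, and a plus-strand peak of 121 nt under ENSG00000075292.19 scored 2e-05. That second ID was the only one of the 192 with peaks elsewhere. The wide peak at RNU6-799P was the member nearest the threshold, with 51.0% of its length in the copy. Just outside was a minus-strand peak of 149 nt with 47.7% in RNU6-1175P, whose score of 4e-72 came near the 1e-72 of the plus-strand member peak at the same copy. Over the list, 98 U6 peaks were on the plus strand and 94 on the minus strand.

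Copy length was used by the rule only as a maximum. The median was 106 nt for both the 190 copies with a peak (60 to 141 nt) and the 1091 without (54 to 147 nt). The share with a peak was 16.3% of the 410 copies of 107 nt and 24.7% of the 150 copies of 106 nt. It was 11.8% of the 170 copies of 104 nt and 6.90% of the 87 copies of 108 to 110 nt. Among 45 copies shorter than 90 nt, 9 had a peak.

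**Figure D4:**
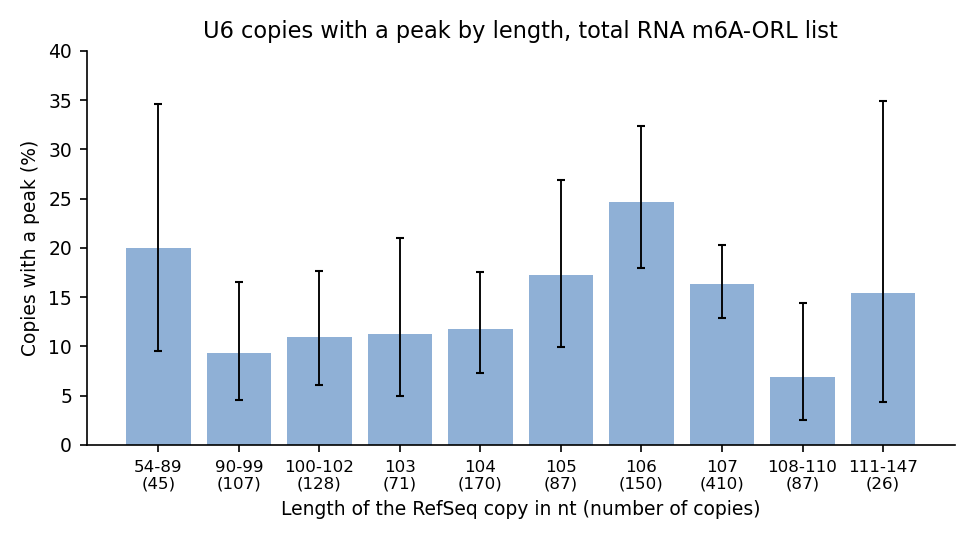
Share of U6 copies with a peak in the total RNA m6A-ORL list (%, vertical axis) by length of the RefSeq copy in nt (horizontal axis, copies in parentheses), with exact 95% binomial intervals as bars. The share runs from 6.90% at 108 to 110 nt to 24.7% at 106 nt, and most intervals overlap.

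Copies with peaks were spread over the genome. Peaks were on 22 of the 24 chromosomes with U6 copies. The most, 20 of 118 copies, were on chromosome 1, and the highest share was 6 of 19 on chromosome 22 (31.6%, interval 12.6 to 56.6). Chromosome 19, which holds RNU6-2 and RNU6-9, had 8 of 27, and chromosome 14, which holds RNU6-7 and RNU6-8, had 2 of 42, both pseudogenes. The 15 copies of chromosome 21 (interval 0 to 21.8) and the 8 copies of chromosome Y (0 to 36.9) had none.

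Of copies lying wholly in the span of a longer protein-coding gene, 107 of 616 had a peak (17.4%, interval 14.5 to 20.6), against 83 of 665 elsewhere (12.5%, 10.1 to 15.2). The intervals overlap, no test was made, and the copies elsewhere include some in longer noncoding genes. With any longer gene counted, 121 of the 190 copies with a peak lay in one (63.7%, interval 56.4 to 70.5). Of the 1091 copies without a peak, 647 did (59.3%, 56.3 to 62.2). For copies in a protein-coding gene, the share was also counted by whether that gene itself carried MeRIP peaks. It was 50 of 283 copies (17.7%) where the gene had a peak in both MeRIP lists and 57 of 333 (17.1%) where it did not. MeRIP peaks were also rare near the copies, with one within 1000 nt of 2 and 4 of the 190 copies with a U6 peak in the 2 lists, and of 17 and 15 of the 1091 without. Other peaks of the m6A-ORL lists were rare there too. In the total RNA list they lay that near 4 of the 190 and 8 of the 1091. In the polyA m6A-ORL list the counts were 3 and 5.

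Genes for proteins that make, modify or bind U6 were counted by peaks under an Ensembl ID placed in their span. Of 34 such genes, 18 and 17 had a peak in the MeRIP lists, 16 in the total RNA list and 13 in the polyA m6A-ORL list. These are 52.9%, 50%, 47.1% and 38.2%, where all protein-coding genes had 38.7%, 38%, 26.5% and 18.9%. That background could not be limited to genes expressed in these cells, since peak lists hold no expression levels. The gap was not tested. METTL16, the U6 methyltransferase gene, had 3 peaks in each MeRIP list, 1 in the total RNA list and 0 in the polyA m6A-ORL list. U6 copies had peaks in the total RNA list only, and RNA type and method are partly confounded in these lists.

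A peak in all 4 lists was found for 7 of the genes. They were MEPCE, which methylates the 5′ end of 7SK, SART3, which recycles the U4/U6 particle, LSM4, of the ring that binds the 3′ end of U6, the U4/U6 protein genes PRPF4 and SNU13, BDP1, of the polymerase III initiation factor, and POU2F1, which binds the distal element of U6 promoters. No ID was placed for 10 genes. SSB, which binds the 3′ end of new polymerase III transcripts, LSM2, LSM6, PRPF3, PPIH, SNAPC1, SNAPC3 and ZNF143 had no peak in their span, while the spans of PRPF31 and SNRNP200 held peaks under an ID that could not be placed. By role, with the MeRIP lists first, then total RNA and polyA m6A-ORL, a peak was listed for 3, 2, 6 and 2 of the 8 Lsm and recycling genes. It was listed for 4, 3, 5 and 5 of the 10 genes for proteins of the U4/U6.U5 particle, and for 7, 7, 2 and 4 of the 10 genes for U6 transcription. For the 4 genes of La proteins and 3′ processing the counts were 2, 3, 1 and 1, and METTL16 and MEPCE together gave 2, 2, 2 and 1. The groups are small, the lists differ in length, and no difference between lists was tested.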

How the data were processed

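The 4 captured libraries have 1 deposited peak list each; the 3 input libraries were not analysed here. Per the file headers, a list has 12 BED columns with blocks, an Ensembl ID and a score. The deposited score lies between 0 and 0.0081 and was treated as a p-value or q-value; it ranked peaks within a list only. Trim Galore, STAR, HOMER and hg38 are named, without role or version, per the submitters' processing notes; the sources used here name no peak caller, control library or threshold.

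Exact duplicate lines were removed (4, 3, 2 and 1). Copies came from the RefSeq gene table (GRCh38.p14), with 1 U6 entry over 400 nt left out. Overlap was computed on peak extents with pandas 2.3.3 and numpy 2.4.6 and tested on 200 simulated peaks; intervals and the permutation test used scipy 1.17.1. A protein-coding gene took the Ensembl ID with the most bases among those with at least 90% of their peak bases in its span, which can be wrong where genes overlap. Named were all functional copies, pseudogenes with a peak in 2 or more lists (0) and the 6 best-scored pseudogenes per list, and of the protein genes METTL16 and those listed in all lists or in none; other names were chosen after their values were seen. The members and gene lists were chosen with earlier results of these data known. The promoter sequence table matched 0 U6 copies, so no sequence is shown and the planned motif count was not run.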

Additional observations from a re-analysis of the deposited data

How the results depend on the processing

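Of 109 values under other settings, 97 stayed within the limits set for them and 12 did not. Many of those that stayed were values of 0 in the 3 polyA lists. Settings that only shorten a list or tighten the rule cannot raise a 0, so the 97 are not a measure of stability. The limits were a factor of 1.5 for a count or a difference without a library, the 95% interval for a share, and, for the tested difference, its direction and the side of the threshold of 0.05, which no arrangement of these lists can pass. Counting any overlap of at least 1 nt gave 7, 7 and 6 U6 peaks, each over a different copy (7, 7 and 6 copies), in MeRIP replicates 1 and 2 and m6A-ORL replicate 2, which are 0.0337%, 0.0346% and 0.0783% of these lists. These were peaks of 3125 nt or more in extent whose blocks lay outside the copy, since any overlap of the blocks, an alternative chosen after seeing the data, gave 0 in all 3 lists and 193 in the total RNA list. The better-scored 50% of the total RNA list held 129 U6 peaks in 127 copies, a share of 2.34%, and the difference between methods was then 64.5 peaks. Leaving out single libraries gave an m6A-ORL minus MeRIP difference from 0 (without m6A-ORL replicate 1) to 192 peaks (without m6A-ORL replicate 2). The total RNA count was 180 with at least 90% of the peak in the copy and 149 at the length of the shortest list. With the replicate number as a block the difference was 96.0 peaks (exact sign flips, p = 1), and with 2 pairs of which 1 is 0 and 0 the pairing cannot be checked. The same-strand alternative was not run because the reference tables used give no strand for U6 copies, nor were the motif alternatives, for want of sequence. Read depth is not known, and precision is set by how many peaks each list holds.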

Other observations

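Pseudogene copies were also split by the number in their symbol, at a limit of 60 chosen after the values were seen, so the split is a description only. In the total RNA m6A-ORL list a peak was found for 27 of 53 pseudogene copies numbered up to 60 (50.9%) and for 161 of 1223 with a higher number (13.2%). A split by whether RefSeq gives the pseudogene a synonym gave 33 of 90 (36.7%) with one and 155 of 1186 (13.1%) without. Both splits are of the same copies and are not independent. Of short pseudogenes outside U6, 14% had a peak in that list. That pool is a mix of 29.0% for the 9 other families and 1.17% for the remaining short pseudogenes. In single families, the pseudogene share ran from 16% for the Y RNAs to 60.3% for U2. The median score rank of the peaks was 4.55% of the list for numbers up to 60 and 28.2% for higher ones, where 0 is best, and 5 and 3 of these peaks had a score of 0. Median copy length was 106 nt in all these sets. Copies share reads, no sequence of them was used, and no test was made.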
